A study of Mus musculus with 11 samples.

Results

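Hedgehog reception in the mouse small-intestinal mesenchyme was followed through 9 genes: the receptor Ptch1, the transducer Smo, the co-receptors Boc, Cdon and Gas1, the ligand-binding antagonist Hhip and the transcription factors Gli1, Gli2 and Gli3. They were chosen by symbol, though with earlier results of these data known. All 9 were found among the 24943 genes of the bulk count table and among the 31017 genes of the whole-mesenchyme single-cell matrices.

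Hedgehog ligands are secreted proteins that, in the gut, come mainly from the epithelium and act on the mesenchyme beneath it. Without ligand, Ptch1 holds Smo inactive. Ligand bound to Ptch1, aided by the co-receptors, frees Smo, which signals at the primary cilium, and the Gli factors then switch on target genes in the nucleus. Ptch1, Gli1 and Hhip are themselves target genes in many tissues, and Ptch1 and Hhip limit the signal by binding ligand. In the intestine the pathway is known for its part in smooth muscle and villus formation.

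The study sorted cells from the small intestine after the outer muscle had been stripped and the epithelium removed. Telocytes, the subepithelial PDGFRA-high cells, were the GFPHi cells of the transgenic PDGFRAH2BEGFP mouse, in which a nuclear green fluorescent protein reports Pdgfra. PDGFRAlo stromal cells were the GFPLo cells of the same line. Blood endothelium (CD31+LYVE1-) and lymphatic endothelium (CD31+LYVE1+) came from C57BL/6 mice, so strain and cell type cannot be told apart between stroma and endothelium. Each of these 4 populations had 2 bulk RNA-seq libraries. Single cells were captured in 1 library of sorted cells, mixed at 2 parts GFPlo to 1 part GFPhi, and in 2 libraries labelled whole mesenchyme, for which no strain is given. The protocol text of the whole-mesenchyme libraries repeats that sort, although leukocytes, at 2926 and 2904 cells, were their largest gated class. No group received a treatment. Neither age nor the animal behind each library is labelled. Bulk p-values rest on the spread between 2 libraries of a group, pooled over the groups. Single-cell p-values rest on what is left between the 2 libraries over all gated classes, once their shared difference is removed. Either spread may therefore be technical. In the single-cell classes, the median chi-square of a gene between libraries ran from 0.534 in telocytes to 0.5745 in fibroblasts, against 0.4549 by counting error alone.

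The bulk libraries held between 8549348 and 55382442 counts. The telocyte and PDGFRAlo libraries bore the markers of their labels. The 8 telocyte markers summed to 6826 and 8044 CPM (counts scaled to 1000000 per library) in telocytes against 529.9 and 481 CPM in PDGFRAlo cells. The 8 fibroblast markers summed to 2595 and 2414 CPM in telocytes against 20823 and 28666 CPM in PDGFRAlo cells. PDGFRAlo libraries also carried 3060 and 1051 CPM of blood endothelial markers, against 73.1 and 46.6 CPM in telocytes. Blood endothelial libraries held 17633 and 18190 CPM of their own markers and 4831 and 4868 CPM of plasma-cell markers. Lymphatic libraries held 4048 and 7753 CPM of lymphatic markers but 172109 and 67064 CPM of plasma-cell markers. The single-cell libraries kept 3843, 6123 and 5929 cells with medians of 4836, 5200 and 5172 unique molecular identifiers (UMIs). Cells were gated by 8 markers per type, none of them a Hedgehog gene. The whole-mesenchyme libraries gave 111 and 104 telocytes, 285 and 238 muscle cells, 40 and 53 pericytes and 1151 and 1070 fibroblasts. The sorted library gave 847 telocytes and 2761 fibroblasts. The sorted library shared 1 cell barcode with the first whole-mesenchyme library and 0 with the second, and the whole-mesenchyme libraries shared 9.

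Hhip and Gas1 differed both between telocytes and the other stroma and between muscle and fibroblasts, so the 250 bases before their annotated starts are printed first. Both lie on the minus strand of the GRCm38.p6 assembly and come from RefSeq, at chr8:80058009-80058258 for Hhip and at chr13:60177536-60177785 for Gas1. Capitals mark CCACCC, the core of the Gli binding site, searched on both strands.
Hhip: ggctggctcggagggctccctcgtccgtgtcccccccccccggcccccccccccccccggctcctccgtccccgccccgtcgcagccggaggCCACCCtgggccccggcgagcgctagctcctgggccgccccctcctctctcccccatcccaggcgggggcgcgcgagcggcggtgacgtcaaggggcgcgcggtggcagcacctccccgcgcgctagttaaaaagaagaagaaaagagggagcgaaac
Gas1: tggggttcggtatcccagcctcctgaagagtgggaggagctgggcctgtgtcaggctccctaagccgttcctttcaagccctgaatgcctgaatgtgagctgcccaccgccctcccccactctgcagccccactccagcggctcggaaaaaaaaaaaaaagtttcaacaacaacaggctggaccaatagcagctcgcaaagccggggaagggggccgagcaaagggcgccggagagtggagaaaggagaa
The Hhip window had 76% G and C, 28 CpG dinucleotides and 1 core match, against 58.8%, 10 and 0 in the Gas1 window. The medians over 32851 RefSeq promoters of the same length were 52.4% and 6 CpG. The core stood in 28.1% of all those windows, and its longer form GACCACCCA, which contains the core, in 0.225%. Of the 7 Hedgehog genes with an entry, Smo, Gli3 and Hhip held 1 core match each, Gli2 held 2, Ptch1, Cdon and Gas1 held 0, and none held the longer form. A match describes the letters only and does not show that a factor binds there. Gli1 and Boc are named only.

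Telocytes were set against PDGFRAlo cells in bulk to ask how Hedgehog reception differs between the PDGFRA populations. The co-receptors Gas1 and Boc and the antagonist Hhip were lower in telocytes, while the receptor, the transducer and the Gli factors were not called different. Of the 9 genes, 0 were higher and 3 lower in telocytes by edgeR's quasi-likelihood test with Benjamini-Hochberg adjustment under 0.05. Over all 14893 genes tested, 2.77% were called higher and 12.1% lower. The median log2 fold of the 9 genes was -1.07, against -0.035 for all genes. In bulk samples, fewer cells of a type and less RNA per cell cannot be told apart.

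Gas1 (chromosome 13, 60174405 to 60177365, minus strand; all gene positions are from GENCODE M21 on GRCm38) encodes a membrane-anchored co-receptor that binds Hedgehog ligand. It had 3.49 and 4.72 CPM in telocytes against 84.6 and 217 CPM in PDGFRAlo cells, after trimmed mean of M-values (TMM) scaling. Both telocyte libraries lay far below both PDGFRAlo libraries, with a log2 fold of -5.19 (SE 0.52, edgeR adjusted p = 0.000378). Boc (chromosome 16, 44485049 to 44558897, minus strand), an immunoglobulin-family co-receptor, had 24.02 and 23.01 CPM in telocytes against 73.6 and 118 CPM in PDGFRAlo cells. Boc was lower in both telocyte libraries, with a log2 fold of -2.03 (SE 0.34, edgeR adjusted p = 0.00368). Its relative Cdon (chromosome 9, 35421128 to 35507652, plus strand) was barely counted, with 5 and 6 counts in telocytes and 4 and 28 counts in PDGFRAlo cells. Cdon was not called (log2 fold -1.13, SE 0.99, edgeR adjusted p = 0.581).

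Hhip (chromosome 8, 79965851 to 80058006, minus strand) encodes a membrane-bound decoy that sequesters ligand. It had 5.35 and 0.303 CPM in telocytes against 83.2 and 41.1 CPM in PDGFRAlo cells, so the groups did not overlap but each was spread widely. Its log2 fold was -4.47 (SE 1.16, edgeR adjusted p = 0.0292). The call was lost without the second telocyte library (log2 fold -3.54, adjusted p = 0.0799), without the first PDGFRAlo library (-3.85, adjusted p = 0.114), without the second lymphatic library (-4.47, adjusted p = 0.0504) and when only these populations entered the fit (-4.51, adjusted p = 0.0548). Of the enteric muscle genes, Actg2 had 2.71 and 0.242 CPM in telocytes against 43.7 and 28.9 CPM in PDGFRAlo cells, and Cnn1 had 2.42 and 0.242 CPM in telocytes against 30.7 and 16.9 CPM in PDGFRAlo cells. The whole list of 8 muscle markers summed to 830 and 485 CPM in telocytes against 581 and 330 CPM in PDGFRAlo cells, and Myh11, a smooth-muscle myosin, had 546 and 305 CPM in telocytes against 193 and 82.4 CPM in PDGFRAlo cells. In each telocyte library 1 of the 8 was at 0, and none was in PDGFRAlo cells. The part of muscle RNA in the Hhip difference was not tested.

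Ptch1 (chromosome 13, 63508328 to 63573598, minus strand) had 200 and 156 CPM in telocytes against 119 and 112 CPM in PDGFRAlo cells. Its telocyte libraries were the higher ones, but the log2 fold of 0.62 (SE 0.29) did not pass (edgeR adjusted p = 0.213). Smo (chromosome 6, 29735503 to 29761365, plus strand), the receptor-like protein that carries the signal into the cell, had 120 and 122 CPM in telocytes against 97.8 and 100.3 CPM in PDGFRAlo cells and was not called (log2 fold 0.29, SE 0.42, edgeR adjusted p = 0.763).

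Gli1 (chromosome 10, 127329882 to 127341974, minus strand), an activator whose own transcription reports the pathway, had 52.0 and 21.2 CPM in telocytes against 48.5 and 30.5 CPM in PDGFRAlo cells. The groups overlapped (log2 fold -0.11, SE 0.62, edgeR adjusted p = 0.9505). Gli2 (chromosome 1, 118834132 to 119053619, minus strand), the main early activator, had 29.4 and 23.6 CPM in telocytes against 27.0 and 40.7 CPM in PDGFRAlo cells, which also overlapped (log2 fold -0.35, SE 0.45, edgeR adjusted p = 0.731). Gli3 (chromosome 13, 15463235 to 15730026, plus strand), which acts largely as a repressor when ligand is absent, had 22.0 and 17.5 CPM in telocytes against 31.7 and 51.0 CPM in PDGFRAlo cells. Gli3 did not overlap between the groups, yet it was not called (log2 fold -1.07, SE 0.54, edgeR adjusted p = 0.267).

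**Figure D1:**
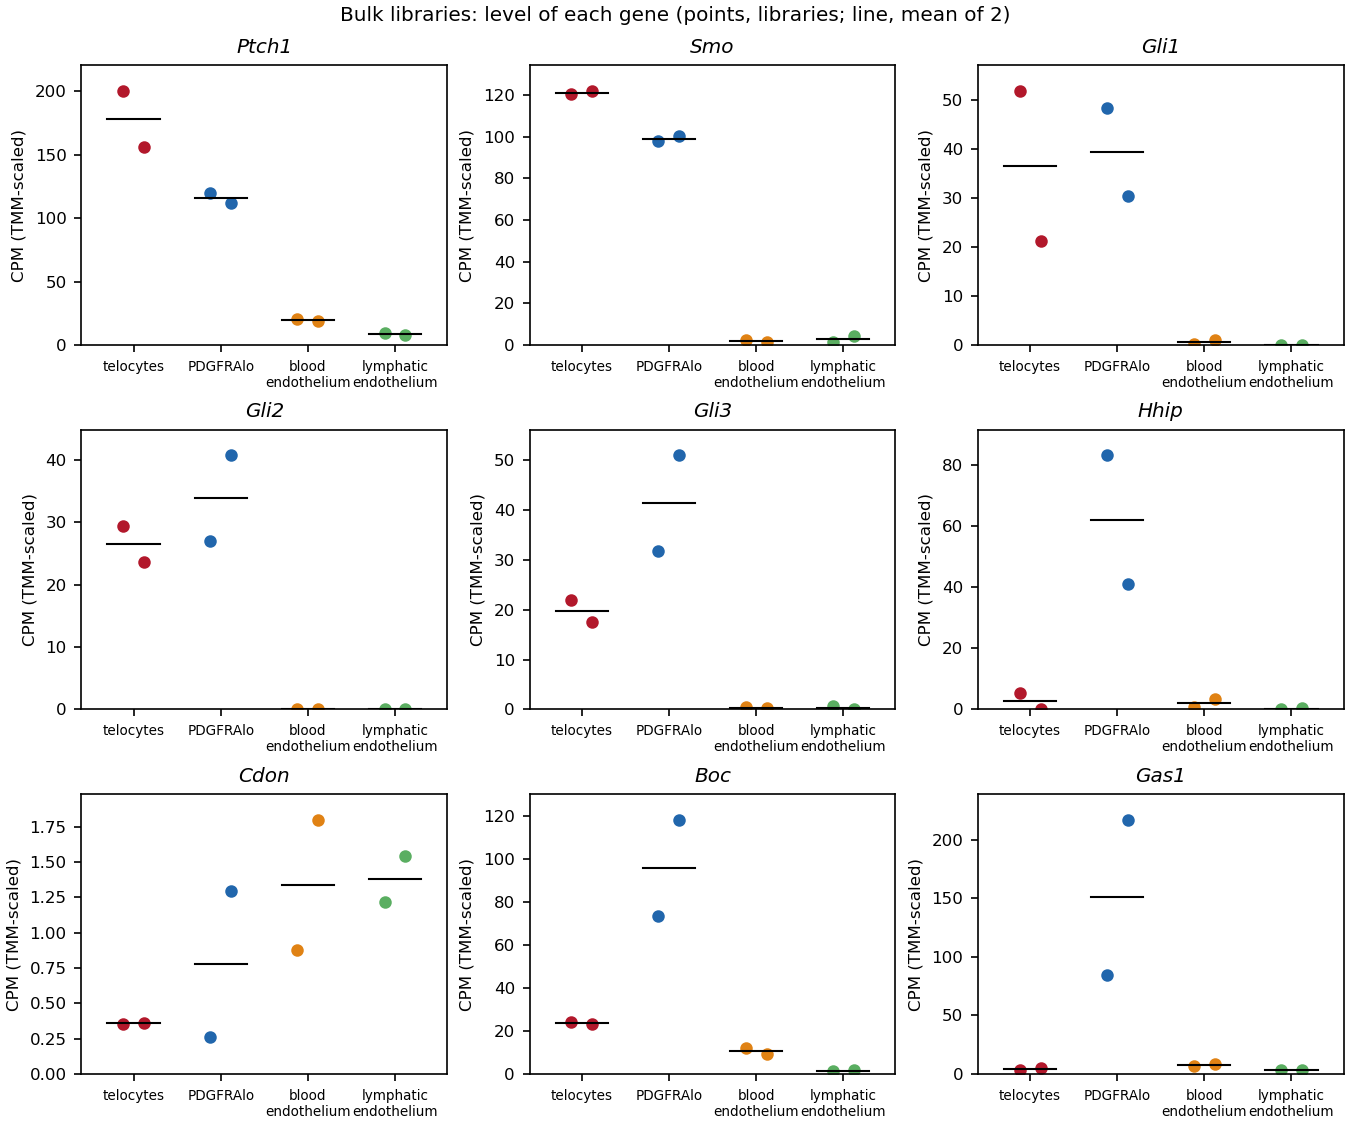
Level of each of the 9 Hedgehog genes in the 8 bulk libraries, in TMM-scaled CPM on linear axes that differ between panels; points are libraries and lines are means of 2. Gas1, Boc and Hhip are low in telocytes and high in PDGFRAlo cells, whereas Ptch1, Smo, Gli1, Gli2 and Gli3 are high in both stromal populations and low in both endothelia. Cdon is highest at 1.80 CPM.

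Per kilobase of exon, which allows genes to be ranked against each other, the order differed between the stromal populations. In telocytes Smo led with 21.6 CPM per kb, followed by Ptch1 (12.6), Gli1 (7.32) and Boc (5.28), and Gas1 stood at 1.39 and Hhip at 0.311. In PDGFRAlo cells Gas1 led with 50.9 CPM per kb, followed by Boc (21.5), Smo (17.6), Ptch1 (8.15), Gli1 (7.91) and Hhip (6.85). Cdon was last in telocytes and in PDGFRAlo cells.

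The PDGFRA stroma, taken as the mean of telocytes and PDGFRAlo cells, was set against the mean of the endothelia to locate Hedgehog reception within the mesenchyme. Of the 9 genes, 8 were higher in stroma and 0 lower, where 28.8% of all genes were called higher and 31.7% lower. Between single populations, 52.1% of all genes were called in either direction in telocytes over blood endothelium, 51.0% in telocytes over lymphatic endothelium, 42.5% in PDGFRAlo cells over blood endothelium and 44.3% in PDGFRAlo cells over lymphatic endothelium. Some of these counts fell by over 1.5 times when 1 library was left out: telocytes over blood endothelium had 7765 calls but 5113 and 4996 without the first and second telocyte library, and telocytes over lymphatic endothelium had 7597 but 4946 and 4786 without them and 4775 without the first lymphatic library. PDGFRAlo cells over lymphatic endothelium had 6592 calls but 4246 without the first PDGFRAlo library and 3546 without the first lymphatic library. The median log2 fold of the 9 was 4.13, that of Hhip itself, against -0.07 for all genes. Hhip was 4.13 log2 units higher in stroma (SE 0.90, edgeR adjusted p = 0.00347) and Gli3 6.51 (SE 0.52, edgeR adjusted p = 1.52e-05). Gli1 and Gli2 were called higher too (edgeR adjusted p = 4.17e-05 and 6.79e-06), and their lymphatic counts were 0. Gli1 had 0 counts in both lymphatic libraries and 0.260 and 1.09 CPM in blood endothelium. Set against 3 counts over the lymphatic group, Gli1 was at least 271.6-fold higher in telocytes and at least 293.3-fold higher in PDGFRAlo cells. Gli2 also had 0 lymphatic counts, giving at least 197-fold in telocytes and 251.2-fold in PDGFRAlo cells. Plasma-cell RNA took up part of the lymphatic counts, and its effect on these bounds was not tested. In blood endothelium Gli2 had 4 counts in all, and its ratio of telocytes to blood endothelium was 435, with a 95% interval of 169 to 1600 that covers counting error only.

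Smo was 5.50 log2 units higher in stroma (SE 0.37, edgeR adjusted p = 6.32e-06), with 2.22 and 1.63 CPM in blood endothelium and 1.35 and 4.37 CPM in lymphatic endothelium. Ptch1 was 3.48 log2 units higher (SE 0.22, edgeR adjusted p = 5.77e-06), Boc 3.55 (SE 0.26, edgeR adjusted p = 1.02e-05) and Gas1 2.41 (SE 0.33, edgeR adjusted p = 0.00028). For Gas1 the PDGFRAlo cells carried that difference. Its telocyte mean of 4.11 CPM lay between the means of blood (7.25 CPM) and lymphatic endothelium (3.03 CPM) and was not called different from either (edgeR adjusted p = 0.153 and 0.461). The telocyte mean of Hhip, 2.82 CPM, was likewise not called different from the 2.21 CPM of blood endothelium (edgeR adjusted p = 0.791). The second blood endothelial library held more Pdgfra (30.2 against 1.89 CPM in the first), Actg2 (34.6 against 6.22 CPM) and Myh11 (97.2 against 18.3 CPM). The part of stromal and muscle RNA in its Hhip level was not tested. Cdon was the exception among the 9, with means of 0.36 CPM in telocytes and 0.779 CPM in PDGFRAlo cells. The blood and lymphatic endothelial libraries had 1.34 and 1.38 CPM, and no neighbours in the order of Cdon levels differed. Leukocyte markers summed to 3042 and 3226 CPM in blood and 5360 and 3041 CPM in lymphatic libraries. They summed to 33.0 and 28.6 CPM in telocytes and 211 and 627 CPM in PDGFRAlo cells. Leukocytes held Cdon counts in single cells, and the part of leukocyte RNA in these levels was not tested.

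Between the endothelia, blood vessels carried more Boc and Ptch1. Of the 9 genes, 2 were higher and 0 lower in blood endothelium, where 14.7% of all genes were called higher and 8.32% lower. Boc had 11.9 and 9.13 CPM in blood against 1.48 and 1.61 CPM in lymphatic endothelium (log2 fold 2.75, edgeR adjusted p = 0.00231). Ptch1 had 20.2 and 18.9 CPM in blood against 9.05 and 7.93 CPM in lymphatic endothelium (log2 fold 1.21, edgeR adjusted p = 0.0198). The Ptch1 call was lost without the first or the second lymphatic library (log2 fold 1.30 and 1.13, adjusted p = 0.0586 and 0.106) and with these populations alone in the fit (1.14, adjusted p = 0.103). Plasma-cell markers, 7 genes with none at 0, summed to 4831 and 4868 CPM in blood endothelium against 172109 and 67064 CPM in lymphatic endothelium, and their part in the difference was not tested.

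The single-cell classes of the whole-mesenchyme libraries allowed telocytes, muscle, pericytes and fibroblasts to be compared within the same libraries, with the library as a block. Of the 9 genes, 8 passed the low-count filter and Cdon did not. Relative to fibroblasts, telocytes carried less Gas1, Boc, Gli1, Gli3 and Hhip and slightly more Ptch1: 1 gene was higher and 5 lower, where 11.7% of all 11575 genes were called higher and 14.9% lower. The median log2 fold of the 8 was -1.18, against -0.04 for all genes. Without TMM scaling the median of all genes shifted to 0.14 and 63.5% of the calls over all genes were higher, against 44.05% with it, and no call among the Hedgehog genes changed.

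Gas1 had 2.095 and 5.026 CPM in telocytes against 97.9 and 103 CPM in fibroblasts (log2 fold -4.79, SE 0.32, edgeR adjusted p = 4.87e-12). Boc had 5.24 and 8.04 CPM in telocytes against 30.2 and 26.7 CPM in fibroblasts (log2 fold -2.08, SE 0.39, edgeR adjusted p = 0.000165). The co-receptors were low in both telocyte libraries, the direction also measured in bulk. Gli1 had 15.7 and 19.1 CPM in telocytes against 40.2 and 38.6 CPM in fibroblasts (log2 fold -1.17, SE 0.26, edgeR adjusted p = 0.000911), and Gli3 had 17.8 and 17.1 CPM in telocytes against 38.3 and 41.4 CPM in fibroblasts (log2 fold -1.19, SE 0.21, edgeR adjusted p = 9.53e-05). In bulk neither was called. PDGFRAlo cells and gated fibroblasts are not the same population, and the bulk and single-cell differences were not tested against each other. Smo (75.4 and 67.4 CPM in telocytes, 77.8 and 76.7 CPM in fibroblasts) and Gli2 (26.2 and 18.1 CPM in telocytes, 29.4 and 31.3 CPM in fibroblasts) were not called (edgeR adjusted p = 0.572 and 0.201).

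Ptch1 had 215 and 268 CPM in telocytes against 190.5 and 189.7 CPM in fibroblasts, a log2 fold of 0.35 (SE 0.11, edgeR adjusted p = 0.0237). Both telocyte values were the higher ones, but DESeq2 did not call it (log2 fold 0.36, adjusted p = 0.251). Hhip had 1.05 and 39.2 CPM in telocytes against 55.9 and 67.7 CPM in fibroblasts, a log2 fold of -1.60 (SE 0.42, edgeR adjusted p = 0.00521). The telocyte values were far apart, and 35 of the 39 Hhip UMIs of telocytes in the second library lay in 1 cell of 10762 UMIs. That cell carried 6 telocyte, 5 muscle and 3 fibroblast markers and held all 5 Gas1 UMIs of its class in that library. With the telocyte of most Hhip UMIs left out of each library, a choice made after seeing the data, the log2 fold of Gas1 was -6.55. That of Hhip was -4.87. Cells were picked by Hhip and from telocytes alone, so the fall for Hhip was fixed in advance. Fibroblasts with up to 33 and 43 Hhip UMIs in the libraries were kept. The log2 fold of Hhip was -5.00 under the stricter gate, but -0.34 and not called with clusters in place of gates (edgeR adjusted p = 0.304), and DESeq2 gave -1.84 (adjusted p = 0.316). The log2 fold was -5.57 without the second library and -0.79 without the first. Free RNA carried Hhip too, at 116 and 100.3 CPM (not TMM-scaled) in the near-empty droplets of the libraries.

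**Figure D2:**
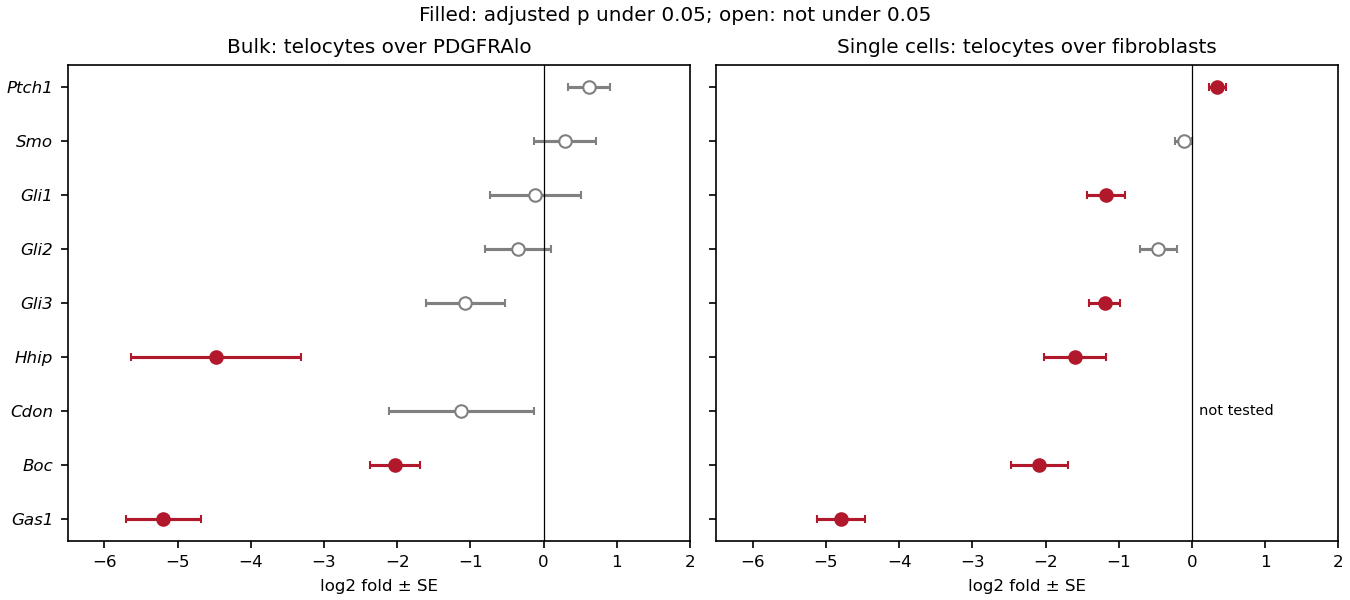
Log2 fold with standard error of each Hedgehog gene for telocytes over PDGFRAlo cells in bulk and for telocytes over fibroblasts in single cells, from edgeR. Gas1, Boc and Hhip lie below 0 in both measurements, and Gli1 and Gli3 are called in single cells but not in bulk. Filled points have an adjusted p under 0.05.

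The sorted GFP+ library had no replicate and gave no test, but it held 847 telocytes, in a mixture whose proportions were set by the sort. In CPM of UMIs, here without TMM scaling, Gas1 had 2.13 in telocytes (95% Poisson interval 0.973 to 4.04) against 89.9 in fibroblasts (84.8 to 95.2). Hhip had 0.473 in telocytes, 2 UMIs in 847 cells (0.0573 to 1.71), against 10.3 in fibroblasts (8.65 to 12.2). Boc had 4.97 in telocytes (3.07 to 7.59) against 25.4 in fibroblasts (22.7 to 28.3), and these intervals did not overlap either. Gli1 had 11.1 in telocytes (8.17 to 14.8) against 22.6 in fibroblasts (20.1 to 25.3). Ptch1 had 112 in telocytes (102 to 122) against 89.4 in fibroblasts (84.4 to 94.7), and Smo had 55.1 in telocytes (48.3 to 62.7) against 50.3 in fibroblasts (46.6 to 54.3). The Ptch1 intervals did not overlap, telocytes being the higher, and the Smo intervals did. All these intervals cover counting error only. Cdon had 0 UMIs in telocytes, which allows a level of up to 0.709 CPM by 3 counts, and 0.91 CPM in fibroblasts.

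Muscle carried the highest level of Hhip among the 4 classes. Of the 8 tested genes, Hhip, Gas1 and Ptch1 were higher in muscle than in fibroblasts and Smo and Gli3 lower, where 20.1% of all genes were called higher and 22.4% lower. The median log2 fold of the 8 was 0.16, against -0.01 for all genes. Hhip had 1926 and 2091 CPM in muscle against 55.9 and 67.7 CPM in fibroblasts (log2 fold 5.03, SE 0.22, edgeR adjusted p = 3.57e-16). A muscle cell held a median of 12 and 13 Hhip UMIs in the libraries, and 57.9% and 56.7% of muscle cells held 10 or more. In fibroblasts 2 and 3 cells of the libraries held that many, with 8.69% and 11.3% of the class's Hhip UMIs. A Hhip UMI was found in 83.9% (exact 95% interval 79.1 to 87.9) and 79.8% (74.2 to 84.7) of muscle cells, against 1.13% and 0.895% of leukocytes, which should lack Hhip, at median depths of 6365 and 6442 UMIs in muscle against 3769.5 and 3759.5 in leukocytes. Among cells thinned to 2000 UMIs, Hhip was detected in 76.8% and 71.1% of muscle cells against 9.68% and 11.1% of fibroblasts.

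Gas1 had 398 and 395 CPM in muscle against 97.9 and 103 CPM in fibroblasts (log2 fold 1.98, SE 0.08, edgeR adjusted p = 3.92e-17). Ptch1 had 339.8 and 415 CPM in muscle against 190.5 and 189.7 CPM in fibroblasts (log2 fold 0.98, SE 0.09, edgeR adjusted p = 3.68e-10). Both genes were higher in muscle in both libraries. Gli3 had 26.8 and 27.7 CPM in muscle against 38.3 and 41.4 CPM in fibroblasts (log2 fold -0.54, edgeR adjusted p = 0.00236), and Smo had 63.2 and 67.4 CPM in muscle against 77.8 and 76.7 CPM in fibroblasts (log2 fold -0.25, edgeR adjusted p = 0.0365). With clusters in place of gates neither was called (edgeR adjusted p = 0.180 for Gli3 and 0.414 for Smo), and Smo was lost under 6 further alternatives. Gli1, Gli2 and Boc were not called, although Gli1 was with clusters (log2 fold 0.46, edgeR adjusted p = 0.013).

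Telocytes fell below muscle in 5 of the 8 genes and above it in 0, where 14.3% of all genes were called higher and 14.8% lower; Gli3 was called lower as well with clusters in place of gates (log2 fold -1.14). Gas1 and Hhip were lower at log2 folds of -6.78 (SE 0.245, edgeR adjusted p = 3.57e-17) and -6.63 (SE 0.32, edgeR adjusted p = 8.11e-15). Both folds moved with the cell described above, which held 35 of the 40 Hhip UMIs and 5 of the 7 Gas1 UMIs of telocytes. Without the telocyte of most Hhip UMIs in each library the log2 folds were -8.53 for Gas1 and -9.89 for Hhip, on 2 and 4 telocyte UMIs. The choice by Hhip among telocytes alone fixed the fall for Hhip in advance. Hhip alone gave -10.68 without the second library and -5.73 without the first. Boc (-2.28), Gli1 (-1.29) and Ptch1 (-0.64) were lower as well (edgeR adjusted p = 0.000109, 0.000816 and 9.01e-05). In the pooled classes Ptch1 in telocytes thus lay above fibroblasts, which DESeq2 did not call, and below muscle. The classes were mixed, as shown here by cluster in CPM without TMM scaling. Telocyte cluster 16 held 242 and 316 CPM of Ptch1 in the libraries. Fibroblast cluster 17 held 528 and 494 CPM, while fibroblast clusters 3, 4 and 12 held 93.5 to 206 CPM. Muscle-gated cells held 483 and 570 CPM in cluster 9 but 49.1 and 31.5 CPM in cluster 23.

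**Figure D3:**
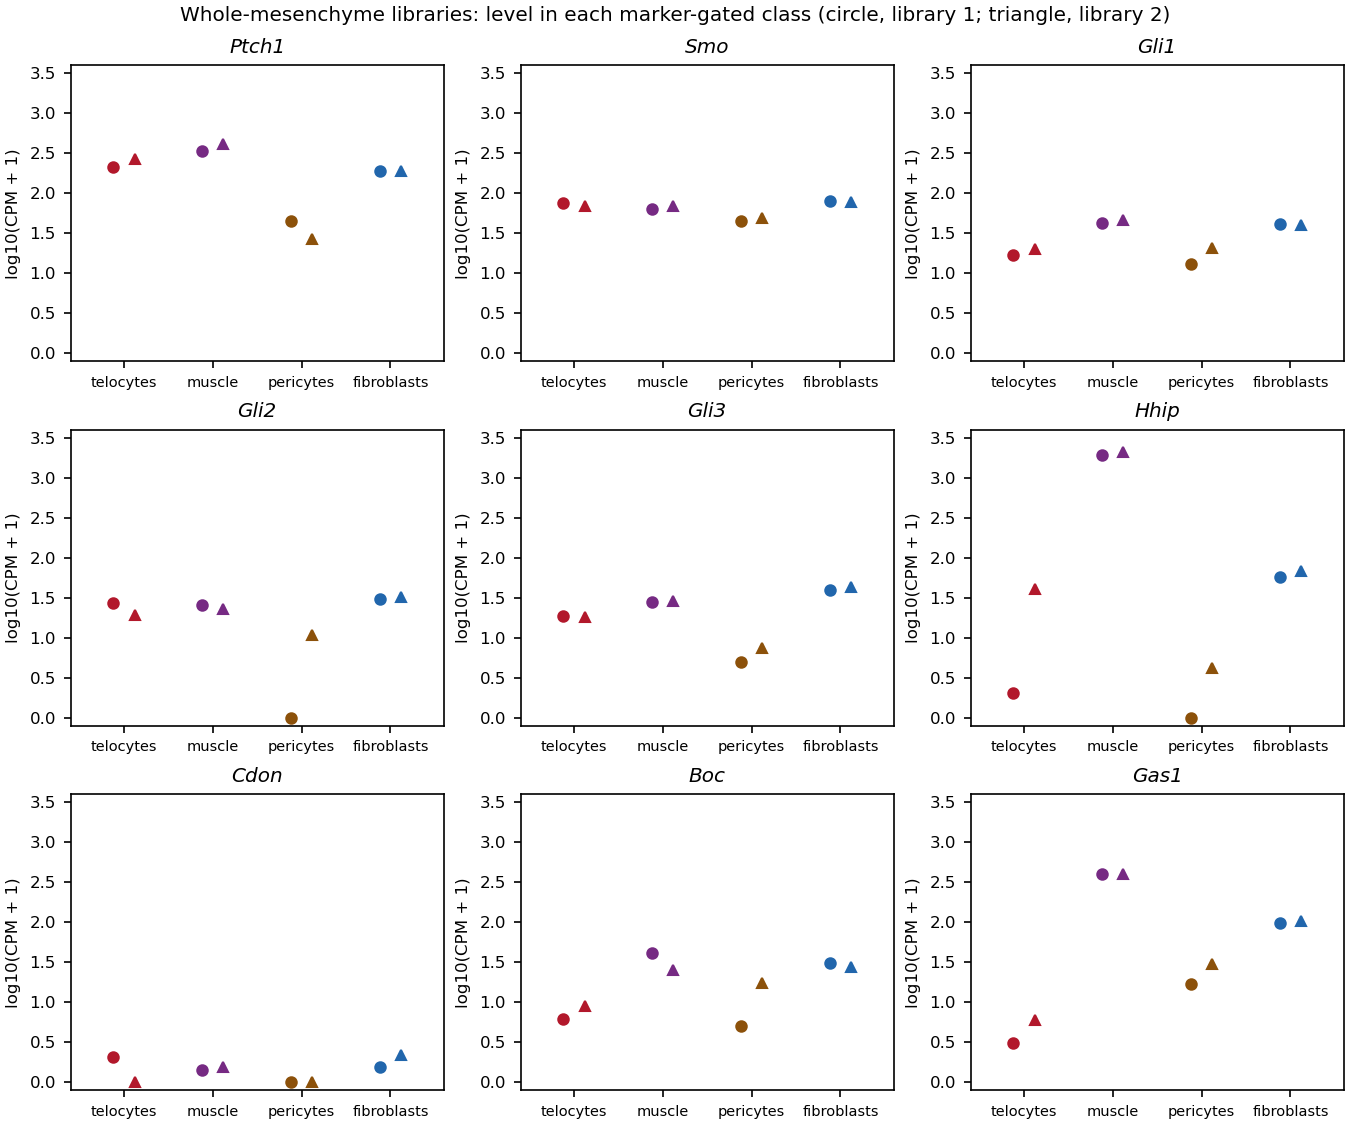
Level of each Hedgehog gene in the 4 mesenchymal classes of both whole-mesenchyme libraries, as log10(CPM + 1) of TMM-scaled UMI sums; points are libraries. Muscle stands highest for Hhip, Gas1 and Ptch1, and telocytes are lowest for Gas1. Pericytes by gate stand lowest for Ptch1, Gli2 and Gli3, but the pericyte cluster did not for Gli3.

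Muscle-gated cells were not uniform. They fell mostly into 2 clusters. The clustering did not use the Hedgehog or pathway genes, and cells of a library give no test. Cluster 9 held 238 and 194 muscle-gated cells, led by Actg2, Cnn1 and Actc1. Cluster 23 held 41 and 36, led by Pln, Sorbs2 and Nrip2, and stayed unnamed, since no gate held over 50% of its 155 cells (77 muscle-gated, 47 pericyte-gated). Over all cells of a cluster, gated or not, median depths were 6308.5 and 6611 UMIs in cluster 9 against 5955.5 and 5632 in cluster 23. Depths of the muscle-gated cells alone are not given. Hhip had a UMI in 98.3% (exact 95% interval 95.8 to 99.5) and 96.4% (92.7 to 98.5) of the muscle-gated cells of cluster 9. In those of cluster 23 the shares were 4.88% (0.596 to 16.5) and 2.78% (0.07 to 14.5). The share of Ptch1 was 91.6% and 89.2% in cluster 9 against 31.7% and 19.4% in cluster 23, and that of Gas1 86.6% and 84.5% against 26.8% and 25.0%. In leukocytes those shares were 4.48% and 4.34% for Ptch1 and 0.957% and 0.758% for Gas1. In CPM without TMM scaling, Hhip stood at 2773 and 2898 in cluster 9 against 38.6 and 4.50 in cluster 23, the last being 1 UMI. Gli3 stood at 36.8 and 38.2 CPM in cluster 9 and had 0 UMIs in cluster 23, which allows up to 10.5 and 13.5 CPM by 3 counts in each library. Actg2, an enteric smooth-muscle actin, followed the same split, with 2535 and 2573 CPM in cluster 9 against 498 and 526 in cluster 23. Acta2, an actin of smooth muscle in general, did not, with 10887 and 10806 CPM in cluster 9 against 11806 and 14204 in cluster 23. Over all muscle-gated cells, those with a Ptch1 UMI held Hhip in 93.2% and 92.9% of cases, against 40.0% and 36.4% of the rest. Median depths were 6366 and 6540 UMIs against 6277 and 6318. These shares pool clusters 9 and 23, so they cannot be told apart from the cluster split.

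**Figure D4:**
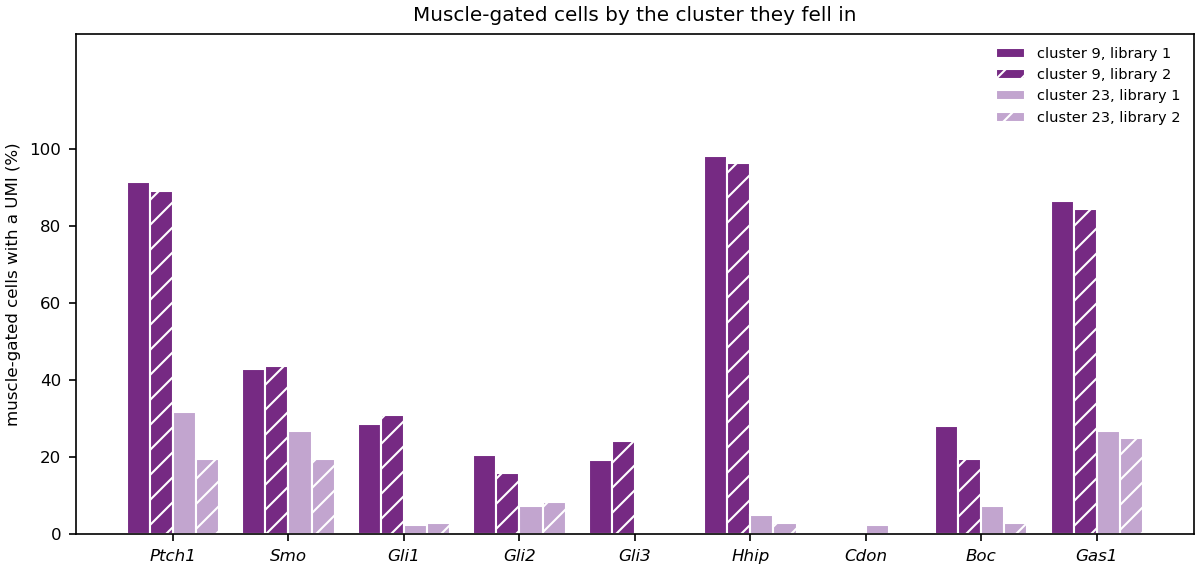
Share of muscle-gated cells with at least 1 UMI of each Hedgehog gene, in percent, by cluster and library; bars have no error bar. Cluster 9 exceeds 96% for Hhip, against under 5% in cluster 23, and Ptch1, Gas1 and Boc split in the same direction.

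Pericytes are the mural cells of capillaries, but the pericyte-gated class was mixed, as given below. Relative to fibroblasts, 7 of the 8 genes were lower in pericytes and 0 higher, where 10.3% of all genes were called higher and 14.2% lower. The median log2 fold of the 8 was -2.31, against -0.13 for all genes. Ptch1 had 43.7 and 25.8 CPM in pericytes against 190.5 and 189.7 CPM in fibroblasts (log2 fold -2.49, SE 0.33, edgeR adjusted p = 1.03e-06). Gas1 had 15.9 and 29.0 CPM in pericytes against 97.9 and 103 CPM in fibroblasts (log2 fold -2.12, SE 0.35, edgeR adjusted p = 3.66e-05). Near-empty droplets held 67.4 and 54.0 CPM of Ptch1 and 32.6 and 29.8 CPM of Gas1 without TMM scaling. Smo was the least reduced at -0.74 (SE 0.24, edgeR adjusted p = 0.0243) and Gli1 at -1.29 (SE 0.47, edgeR adjusted p = 0.0471). Boc was not called (log2 fold -1.40, SE 0.60, edgeR adjusted p = 0.1004). Hhip, Gli2 and Gli3 were called lower as well, but pericytes held 1, 3 and 3 UMIs in all. Their ratios of fibroblasts to pericytes were 34.6 (95% interval 6.19 to 1366), 5.68 (1.93 to 27.6) and 7.45 (2.54 to 36.2). With clusters in place of gates (29 and 39 cells), Ptch1, Gas1 and Hhip stayed called and Smo, Gli1, Gli2 and Gli3 did not (edgeR adjusted p = 0.0656, 0.768, 0.153 and 0.190). In that pericyte cluster Gli1 had 29.9 and 44.8 CPM without TMM scaling, on 4 and 8 UMIs, against 35.7 to 51.2 CPM in the fibroblast clusters. Gli3 had 29.9 and 22.4 CPM there, on 4 UMIs in each library, against 18.3 and 17.8 CPM in telocyte cluster 16. Smo and Gli1 were also lost under the stricter gate, without TMM and under DESeq2. Pericyte-gated cells carried muscle markers at 4415 and 4080 CPM without TMM scaling, against 7157 and 7313 for their own markers. Of the 93, 47 lay in cluster 23. In the second library, pericyte-gated cells held 8382 CPM of Acta2 in cluster 23 against 1855 CPM in cluster 28. Their Gli1 UMIs in that library were 0 in cluster 23 and 6 in cluster 28. The part of this mixture in the differences was not tested.

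Against pericytes, telocytes were higher in Ptch1 (log2 fold 2.84, SE 0.33, edgeR adjusted p = 2.59e-07) and lower in Gas1 (log2 fold -2.68, SE 0.75, edgeR adjusted p = 0.0104), where 10.3% of all genes were called higher and 9.36% lower. The other 6 genes were not called, and Gas1 was not with clusters in place of gates (adjusted p = 0.121). Without the telocyte of most Hhip UMIs in each library, a choice made among telocytes alone and after seeing the data, the log2 fold of Gas1 was -4.43. Muscle was higher than pericytes in 5 genes and lower in 0, where 7.16% of all genes were called higher and 6.44% lower. These were Ptch1 (log2 fold 3.47), Gas1 (4.10), Hhip, Gli2 and Gli3, with Hhip at a ratio of 1123 (95% interval from 201 upward, on 1 pericyte UMI). Gli2 and Gli3 rest on 3 pericyte UMIs each, at ratios of 4.38 (1.45 to 21.6) and 5.10 (1.70 to 25.1). Neither was called under the stricter gate or with clusters (edgeR adjusted p = 0.0805 and 0.260 for Gli2, 0.255 and 0.444 for Gli3). The Gli2 call was also lost with doublets kept and without TMM (edgeR adjusted p = 0.0640 and 0.0607), and under DESeq2 (adjusted p = 0.0962).

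Fibroblast clusters, built without the Hedgehog genes, differed in them, and are described with no test in CPM without TMM scaling. Cluster 17, 127 and 113 cells, led by Cxcl14 and Mmp10 and by proliferation genes such as Mki67, held 528 and 494 CPM of Ptch1 in the libraries, with 47.6 and 31.8 CPM of Gas1. Cluster 12, 209 and 173 cells led by genes that include Cilp, Cd81 and Pi16, held 93.5 and 95.8 CPM of Ptch1 but 221 and 218 CPM of Gas1 and 64.7 and 47.9 CPM of Boc. Cluster 3 held 201 and 206 CPM of Ptch1 and cluster 4 held 145 and 141 CPM. The receptor and the co-receptor Gas1 thus ran in opposite orders between clusters 17 and 12 in both libraries. Hhip did not follow, with 35.7 and 2.19 CPM in cluster 17 against 24.7 and 37.9 CPM in cluster 12. The muscle cluster 9 held 462 and 559 CPM of Ptch1 and 2484 and 2641 CPM of Hhip.

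**Figure D5:**
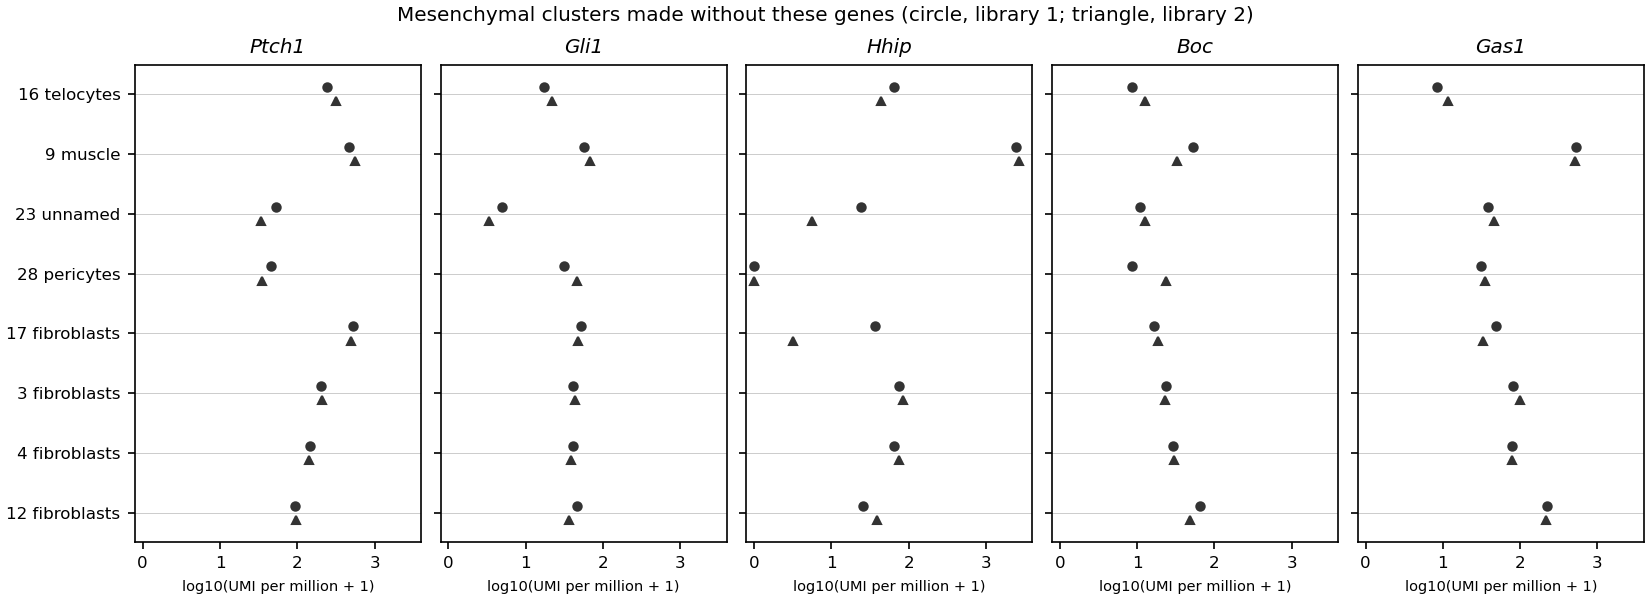
Level of Ptch1, Gli1, Hhip, Boc and Gas1 in the mesenchymal clusters of the whole-mesenchyme libraries, as log10(CPM + 1) without TMM scaling; circles are library 1 and triangles library 2. Cluster 17 has the highest fibroblast Ptch1 (528 and 494), cluster 12 the highest fibroblast Gas1 (221 and 218), and the muscle cluster 9 the highest Hhip (2484 and 2641).

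The other genes of the pathway were taken from 5 lists of 58 genes, of which 55 were tested in bulk and 48 in single cells. Between telocytes and PDGFRAlo cells in bulk, 5 were higher and 6 lower (2.77% and 12.1% of all genes), and the median log2 fold of the tested genes was 0.13, against -0.035 for all genes. None of the 19 genes that relay the signal between Smo and Gli was called, nor any of 12 cilium genes. Among the other receptors and co-receptors, 3 of 6 were lower. Among these, Gpc3, a glypican that binds ligand, had 0.132 CPM in telocytes and 132 CPM in PDGFRAlo cells (edgeR adjusted p = 0.000242). Among 11 known mesenchymal targets, 4 were higher and 2 lower. Foxl1, a telocyte factor, averaged 53.7 CPM in telocytes and 2.74 CPM in PDGFRAlo cells (log2 fold 4.31, edgeR adjusted p = 0.0313), and Foxf2, a forkhead factor of gut mesenchyme, averaged 319.7 CPM in telocytes and 71.3 CPM in PDGFRAlo cells (log2 fold 2.17, edgeR adjusted p = 0.0186). Osr1 averaged 2.57 CPM in telocytes and 81.2 CPM in PDGFRAlo cells (log2 fold -4.99, edgeR adjusted p = 0.00112). Disp1, which releases ligand from producing cells, averaged 32.4 CPM in telocytes and 13.6 CPM in PDGFRAlo cells (log2 fold 1.25, edgeR adjusted p = 0.0374).

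Between stroma and endothelium, 33 of the 55 were higher and 6 lower, where 28.8% of all genes were higher and 31.7% lower. Of 19 relay genes 10 were higher and 2 lower, and of 12 cilium genes 7 were higher and 1 lower. Gpr161, a ciliary receptor that restrains the pathway, averaged 16.1 CPM in stroma and 1.08 CPM in endothelium (log2 fold 4.68, edgeR adjusted p = 1.34e-05). Rab23, a small GTPase that also restrains it, averaged 64.8 CPM in stroma and 10.2 CPM in endothelium (log2 fold 2.65, edgeR adjusted p = 0.000106). Bmp4, a known target, averaged 722 CPM in stroma and 14.4 CPM in endothelium (log2 fold 6.07, edgeR adjusted p = 2.94e-06). Arrb2, Grk2 and Arl13b were lower in stroma.

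Between blood and lymphatic endothelium, 15 of the 55 genes were higher and 3 lower, where 14.7% of all genes were higher and 8.32% lower. Calls over all genes numbered 3422, but 1983 and 1168 without the first and second lymphatic library. The targets Foxf1 (81.3 CPM in blood endothelium, 6.16 CPM in lymphatic endothelium) and Nkx2-3 (545 CPM in blood endothelium, 23.99 CPM in lymphatic endothelium) were among the 3 targets called higher, and Osr1 was called lower.

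In single cells, telocytes against fibroblasts gave 8 higher and 10 lower of 48 (11.7% and 14.9% of all genes), with a median log2 fold of 0.04 against -0.04 for all genes. Gpc3 was again lower, with 0 UMIs in both telocyte libraries against a mean of 43.9 CPM in fibroblasts. Gpc6, another glypican, averaged 7.25 CPM in telocytes and 68.4 CPM in fibroblasts (log2 fold -3.25, edgeR adjusted p = 5.29e-09). Of 10 targets tested 5 were higher and 2 lower: Foxl1 (log2 fold 3.43, edgeR adjusted p = 5.77e-08), Bmp4 (729 CPM in telocytes, 441 CPM in fibroblasts) and Ccnd1, a cyclin (218 CPM in telocytes, 78.3 CPM in fibroblasts), were among the higher, and Osr1 was lower (2.62 CPM in telocytes, 48.5 CPM in fibroblasts). Scube1, a secreted protein of the family that aids ligand release, averaged 58.7 CPM in telocytes and 144 CPM in fibroblasts (log2 fold -1.30, edgeR adjusted p = 1.01e-06). Muscle against fibroblasts gave 15 higher and 13 lower of 48 (20.1% and 22.4% of all genes), among them Myocd, a smooth-muscle co-activator, at 187.5 CPM in muscle and 11.4 CPM in fibroblasts (log2 fold 4.02, edgeR adjusted p = 5.99e-19). Scube2 was also higher (50.9 CPM in muscle, 3.09 CPM in fibroblasts), as was Foxf2 (125 CPM in muscle, 45.6 CPM in fibroblasts), while Bmp4 was lower (182 CPM in muscle, 441 CPM in fibroblasts). Pericytes against fibroblasts gave 6 higher and 7 lower of 48, shares near the 10.3% and 14.2% of all genes. Ccnd2, a cyclin, averaged 356 CPM in pericytes and 126.5 CPM in fibroblasts (log2 fold 1.48, edgeR adjusted p = 5.67e-09), and Bmp4 averaged 15.6 CPM in pericytes and 441 CPM in fibroblasts (log2 fold -4.78, edgeR adjusted p = 2.79e-12). Telocytes against muscle gave 6 higher and 14 lower (14.3% and 14.8% of all genes). Telocytes against pericytes gave 7 and 6 (10.3% and 9.36%), and muscle against pericytes gave 10 and 3 (7.16% and 6.44%).

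Of the ligands, Shh had 0 counts in all 8 bulk libraries and 0 UMIs in every class of the whole-mesenchyme libraries, and Ihh stayed at or below 0.416 CPM in bulk and had at most 1 UMI in a class of either single-cell library. Dhh was counted more, with 7.94 and 14.9 CPM in blood endothelium in bulk against 1.35 and 2.55 CPM in lymphatic endothelium (log2 fold 2.52, edgeR adjusted p = 0.0540), and with 15.96 and 41.1 CPM in blood endothelium and 19.9 and 30.2 CPM in enteric glia in single cells. In bulk, Dhh had 2 counts over both telocyte libraries and 109 over both PDGFRAlo libraries and was called lower in telocytes (edgeR adjusted p = 0.00967), with no fold given on so few counts. Blood endothelial markers summed to 3060 and 1051 CPM in PDGFRAlo libraries against 73.1 and 46.6 CPM in telocytes. The part of endothelial RNA in the Dhh difference was not tested.

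Genes whose levels followed each of the target genes were sought over 8 values, the 4 mesenchymal classes in both libraries, among 7148 genes. Pearson's r on log2(CPM + 1) describes likeness only, since the values share libraries. Ptch1 was followed by Acap2 (0.99), Pcmtd1 (0.99) and Timm17b (0.99), Gli1 by Hbp1 (0.99), Setbp1 (0.98) and Stard3nl (0.98), and Hhip by Syt11 (0.99), Ccl11 (0.98) and St3gal5 (0.98).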

How the data were processed

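Bulk libraries (SMART-Seq v4, 2 per population) and droplet single-cell libraries were deposited by the authors as raw counts: reads per gene in bulk and UMI counts per gene and cell in single cells. STAR, Cell Ranger 2.1.1 and 3.0.2, Seurat and the mm10 build are named per the submitters' processing notes. The sources used here give no gene counter, annotation or strand setting, so overlapping genes on opposite strands cannot be told apart. The bulk table lists 24969 names, of which 26 were dates made from gene names by a spreadsheet; they were left out. Names matched 24449 entries of GENCODE M21, which served for positions and exon lengths.

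Kept cells had at least 500 genes and less than 10% mitochondrial UMIs, and those with a doublet score over 0.25 were removed (47, 103 and 111). A cell was gated to a type when 3 or more of its 8 markers were detected, with a lead of 1 over other types. The gate and doublet limits were set after seeing gate and score counts, not the Hedgehog genes. Clusters (Leiden, resolution 1, 15 neighbours, 30 components, 2000 variable genes) excluded the Hedgehog and pathway genes and were named where over 50% of cells shared a gate.

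Levels are TMM-scaled CPM unless stated. Tests used edgeR 4.0.16 (R 4.3.3, limma 3.58.1): quasi-likelihood F-tests, TMM scaling, filterByExpr, Benjamini-Hochberg adjustment over all genes. Bulk used 8 libraries with 4 group means (residual df 4). Single-cell UMIs were summed per library and class with library as block (residual df 8). DESeq2 1.42.0 was an alternative. Python 3.11.15, scanpy 1.11.5 and leidenalg 0.10.2 handled cells. Scripts were tested on simulated data. Named pathway genes were Shh, Ihh, Dhh, Foxl1 and, per list and direction, the 2 called genes of smallest p with 5 CPM or more in a group; Shh, Ihh and Dhh are given once, some others as counts only, and 1 gene of the rule is not reported here. The members and lists were chosen with earlier results of these data known.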

Additional observations from a re-analysis of the deposited data

How the results depend on the processing

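No called log2 fold of the 9 genes changed sign. Of the bulk log2 folds recomputed under alternatives, 322 stayed on the same side of the threshold, 9 passed it newly and 7 lost it. The direction of folds called in neither setting was not checked. Of the single-cell ones, 12 passed newly and 29 lost the call. Another 476 stayed on the same side or, for folds of 1 library with no test, lay within the spread of the 2 such folds. The other 11, all of 1 library, moved by more than that spread, which those same folds set. Telocytes over PDGFRAlo cells had 2 or 3 lower genes under every alternative run. The count of genes higher in blood over lymphatic endothelium was 5 with no low-count filter, 1 with only the groups compared, and 1 to 3 leaving out each library. In single cells, the count of genes higher in telocytes over fibroblasts was 0 under DESeq2. The count lower in muscle over fibroblasts was 1 under the stricter gate, with doublets kept, without TMM, without the low-count filter, under DESeq2 and with only the 4 mesenchymal classes, and 0 with clusters in place of gates. With clusters, 3 genes were lower in pericytes over fibroblasts, and in telocytes over pericytes 2 were higher and 0 lower. Telocytes over pericytes also gave 2 higher without the low-count filter, without the replicate block and with only the 4 classes. Muscle over pericytes gave 3 higher under the stricter gate and with clusters. The cause was not tested.

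Replicate numbers were not taken to pair the bulk libraries, since correlations of same-numbered deviations ran from -0.082 to 0.341; with a replicate block telocytes over PDGFRAlo cells gave 2131 calls over all genes, against 2212 without it, and no Hedgehog call changed. Calls over all genes for this comparison were 1362 and 1047 without the first and second telocyte library, and for blood over lymphatic endothelium 1983 and 1168 without the first and second lymphatic library, against 3422. Without TMM, the share of calls that were higher was 60.8% in muscle and 57.3% in pericytes over fibroblasts, against 47.3% and 42.1%; under DESeq2 it was 53.3% in pericytes over fibroblasts and 41.55% in muscle over pericytes, against 52.7%. When cells were thinned to 2000 UMIs, 74 shares of cells with a UMI moved and 16 did not. Thinning takes UMIs away, so lower shares follow from the cut itself and this count is no check on the other results. Cdon had 4 to 43 counts in a bulk library. Pericyte values rest on 40 and 53 cells by gate, 21 and 28 by the stricter gate and 29 and 39 by cluster.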

Other observations

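Cdon, scarcely counted in any stromal class, was counted in leukocytes of the whole-mesenchyme libraries, at about the level of free RNA. The part of free RNA in these counts was not tested. Leukocytes held 7.65 and 8.10 CPM of Cdon without TMM scaling, against 0.569 and 1.24 CPM in fibroblasts, and near-empty droplets held 6.74 and 7.35 CPM. A Cdon UMI was found in 3.96% and 4.17% of leukocytes, against 0.434% and 0.935% of fibroblasts, at median depths of 3769.5 and 3759.5 UMIs against 7640.0 and 7517. Among cells thinned to 2000 UMIs the shares were 1.98% and 2.06% of leukocytes against 0 and 0.38% of fibroblasts. Cdon did not pass the low-count filter, so no test was made.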
